A study of Mus musculus with 40 samples.

Results

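These results concern a single dose interval in male liver, the step from 0.5 to 5 mg/kg GenX per day. The 5 animals numbered 301 to 305 had received 0.5 mg/kg and the 5 animals numbered 401 to 405 had received 5 mg/kg, a 10-fold higher dose, so 10 of the 40 libraries of the series entered the step itself. The members were taken by their animal numbers, and for a gene with several probes the most counted probe stood for the gene. GenX is the ammonium salt of a short-chain perfluorinated ether acid. All animals were wildtype Crl:CD1(ICR) mice, an outbred stock, housed singly, gavaged daily for 90 days with the compound in deionized water, and the 5 male controls (0 mg/kg, animals 101 to 105) received deionized water alone. Females of the same study entered the fit, gave control levels for a few genes and served as a comparison of the step. Age was not given in the sources used here. RNA came from 1 formalin-fixed, paraffin-embedded liver section per animal, and the animals used were the first 5 of each dose group by number. A whole section was scraped, so fewer cells of a type and less RNA per cell cannot be told apart in any value below.

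GenX acts in rodent liver as a ligand of the nuclear receptor PPARα, which pairs with RXR on DNA elements made of a direct hexamer repeat and switches on genes that import, activate and burn fatty acids in mitochondria, peroxisomes and, by ω-hydroxylation, microsomes. In mice, sustained activation of this receptor is known for enlarging hepatocytes, expanding the peroxisome compartment, driving some hepatocytes into division and lowering transcripts of plasma proteins and of other liver-specific enzymes. The question put to this dose interval was which transcripts the higher dose added and which had already reached their level at 0.5 mg/kg.

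The 0.5 mg/kg libraries held 13180219 to 15531174 reads and the 5 mg/kg libraries 12244461 to 15435345. Each original molecule was read about 25.02 to 38.82 times at 0.5 mg/kg and 20.77 to 28.43 times at 5 mg/kg. This was estimated from the main peak in the histogram of low counts of each library, taken to be single molecules. By that estimate a library stood for 361912 to 526724 molecules at 0.5 mg/kg and 483008 to 656743 at 5 mg/kg. Probes with any read numbered 12424 to 13445 at 0.5 mg/kg and 14027 to 14883 at 5 mg/kg, with no overlap. Depth in molecules thus rose with the dose. Its part in the counts was addressed by thinning every library to the same number of molecules (values beside the counts). Only 3700 genes could be tested after thinning, so depth was not addressed for the others. No pair of the 10 libraries looked like a copy of another (Pearson r of log2 CPM 0.8611 to 0.9321). The sections were liver by their markers: the 7 hepatocyte markers tested summed to 10323 to 12355 CPM (read counts scaled to the library total, after TMM) at 0.5 mg/kg and 9112 to 10631 CPM at 5 mg/kg. 2 of them fell in the step, Cps1 and Hnf4a, at an edgeR quasi-likelihood adjusted p below 0.1, the threshold used throughout for calling a gene.

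The step from 0.5 to 5 mg/kg changed 374 of 12412 genes tested, which is 3.01%. Of these, 145 rose (1.17% of the genes tested) and 229 fell (1.84%). The change exceeded 1 on the log2 scale for 69 of the rising and 102 of the falling genes. Values of the 10 animals did not overlap between the doses for 293 of the 374, while 5.28% of all genes tested showed no overlap. The count was 278 rising and 290 falling among 3700 genes after thinning to equal molecules, and 333 rising and 291 falling when only these 10 libraries entered the fit, so the share of rising calls was 38.77% in the fit over 39 libraries, 48.94% after thinning and 53.37% in the fit of 10. These 3 fits tested 12412, 3700 and 9831 genes, so the shares come from different sets of genes. Without animal 402 the rising genes numbered 94 and the falling genes 159.

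Against the controls, the 0.5 mg/kg dose had already raised 233 genes (1.88% of those tested) and lowered 91 (0.733%). These comparisons share animals 301 to 305 with the step, so what follows is a count of classes and not a test. Of the 324 genes called at 0.5 mg/kg, 59 moved further in the same direction between 0.5 and 5 mg/kg (34 rising, 25 falling) and 10 turned back. For 186 of them (139 raised and 47 lowered at 0.5 mg/kg) the step was not called and its 95% interval lay within a 2-fold change either way, and these are named plateau genes here. The remaining 69 had intervals too wide for a statement. Conversely, 305 of the 374 genes of the step had not been called at 0.5 mg/kg, and 199 of those 305 were falling genes. For 221 of the 305 the interval of the first dose step was itself within 2-fold, 157 of them falling in the second.

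The 34 genes that rose over both intervals included enzymes of fatty acid oxidation. Ehhadh, the bifunctional enzyme of the peroxisomal β-oxidation spiral (chr16:21761287-21787807 on the minus strand of GRCm38), measured 167, 257, 247, 213 and 139 CPM in the controls. Its level was 2037, 1814, 2078, 2184 and 1518 CPM in the 0.5 mg/kg mice and 11731, 12884, 11037, 8124 and 9211 CPM in the 5 mg/kg mice, with every animal of a dose above every animal of the dose below. The log2 fold change of the step was 2.46 ± 0.17 (SE), edgeR adjusted p = 4.9e-15, beside 3.23 ± 0.17 for 0.5 against 0 mg/kg, so 43.2% of its whole log2 rise fell in the second interval. Acot1, a cytosolic thioesterase that frees fatty acids from CoA, followed the same course with 415, 207, 319, 394 and 221 CPM at 0.5 mg/kg and 1541, 1751, 1670.4, 1121 and 994 CPM at 5 mg/kg (log2 fold change 2.19 ± 0.26 (SE), edgeR adjusted p = 3.3e-08). Its mitochondrial relative Acot2 measured 10.4, 7.48, 34.4, 35.9 and 13 CPM and then 238, 258, 273, 147 and 141 CPM (log2 fold change 3.39 ± 0.90 (SE), edgeR adjusted p = 0.027). The 2 doses did not overlap for either thioesterase. The Acot1, Acot2 and Acot3 genes are close copies of each other, so part of these reads may be shared between them.

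In the mitochondrial β-oxidation list 8 of 18 genes rose in the step and none fell, with a median log2 fold change of 0.47 beside 0.08 over all genes tested. The trifunctional protein subunits Hadha and Hadhb rose by 0.78 and 0.82 on the log2 scale (edgeR adjusted p = 0.0026 and 3.7e-05). Hadhb measured 552, 393, 472, 419.8 and 403 CPM at 0.5 mg/kg and 683, 988, 859.9, 718 and 697 CPM at 5 mg/kg. Acadl, the long-chain acyl-CoA dehydrogenase, went from 407 ± 34.1 to 713 ± 98.4 CPM (SD, n = 5 each) with a log2 fold change of 0.81 ± 0.15 (SE), edgeR adjusted p = 0.00023. These enzymes had been raised by similar or larger amounts at 0.5 mg/kg (log2 0.84, 1.10 and 1.52). Aldh3a2, the fatty aldehyde dehydrogenase of the endoplasmic reticulum, rose from 769 ± 132 to 2107 ± 256 CPM (log2 fold change 1.45 ± 0.17 (SE), edgeR adjusted p = 3.1e-08), and the 8474 to 9957 CPM summed over the mitochondrial list at 0.5 mg/kg became 11559 to 12530.5 CPM.

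**Figure D1:**
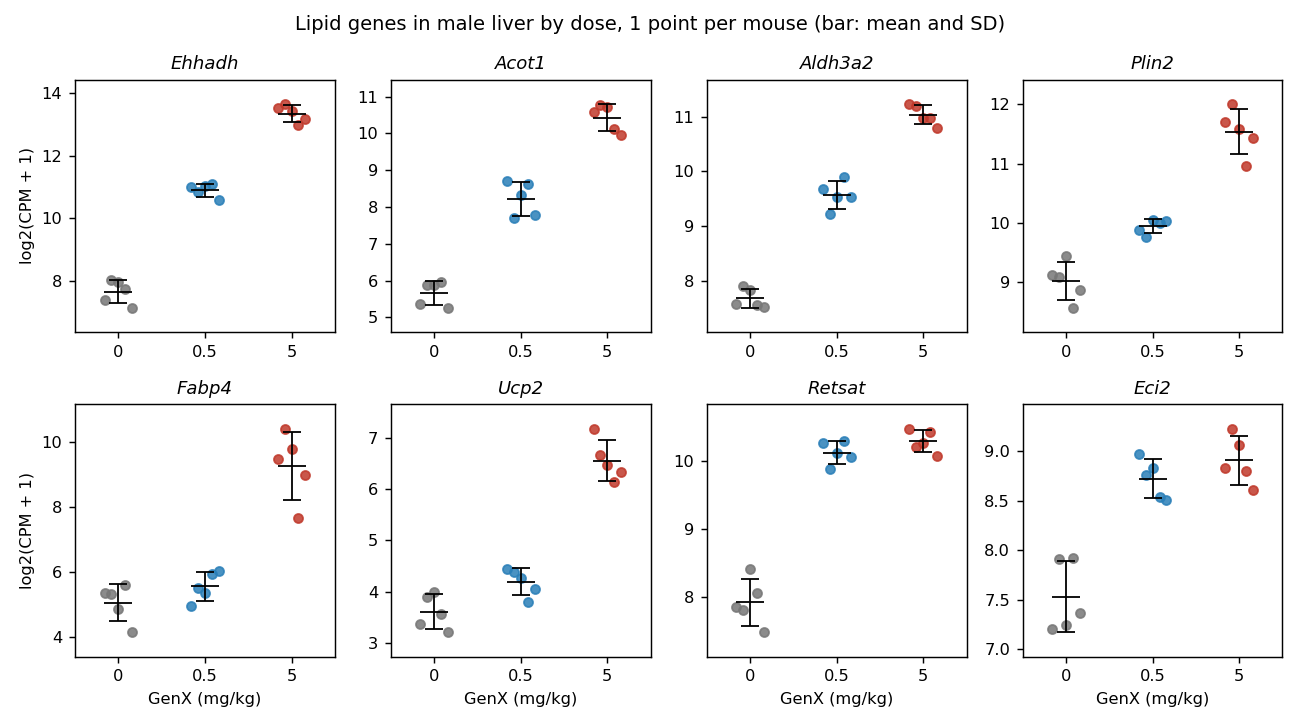
Level of 8 lipid genes as log2(CPM + 1) in each male mouse against the GenX dose in mg/kg, with the mean and SD of the 5 mice as a black bar. Ehhadh, Acot1, Aldh3a2 and Plin2 climb at both steps, Fabp4 and Ucp2 climb between 0.5 and 5 mg/kg, and Retsat and Eci2 stand at about the same level in both treated groups.

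The members of the peroxisomal list did not all move the same way. The list summed to 9256 to 13143 CPM at 0.5 mg/kg and 17153 to 22937.5 CPM at 5 mg/kg, without overlap. Ehhadh alone had means of 1926 and 10597 CPM. Of 19 genes tested in this peroxisomal β-oxidation list, which also holds related enzymes such as Phyh, 4 rose (Ehhadh, Hsd17b4, Acaa1a and Acot3) and 3 fell. The falling genes were Phyh, which starts the α-oxidation of branched fatty acids, Pecr, a trans-2-enoyl-CoA reductase, and Scp2, whose product includes the branched-chain thiolase. Phyh measured 505, 305, 311, 337 and 324 CPM at 0.5 mg/kg and 145, 147, 194, 201 and 205 CPM at 5 mg/kg (log2 fold change -0.996 ± 0.18 (SE), edgeR adjusted p = 0.0002), so every 5 mg/kg mouse lay below every 0.5 mg/kg mouse. On the log2 scale Pecr changed by -1.03 ± 0.23 (SE), edgeR adjusted p = 0.004, and its doses did not overlap either. Scp2 changed by only -0.36 (edgeR adjusted p = 0.051) and lost its call when any 1 of 4 mice (301, 303, 401 or 402) was left out, with adjusted p up to 0.2. Of the rising members, Hsd17b4, Acaa1a and Acot3 were less firm. Hsd17b4 rose by only 0.35 (edgeR adjusted p = 0.089). The Acaa1a rise of 0.75 (edgeR adjusted p = 0.083) became 0.47 without animal 405, whose 4894 CPM stood above the 2276 to 2427 CPM of the other 4. Acot3 lost its call when any 1 of 8 of the 10 mice was left out (adjusted p up to 0.24). DESeq2 called 2 members of the list as rising, the fit of 40 libraries 1 and the fit of 10 libraries 7. Among the 21 peroxins and peroxisomal ABC transporters none rose and Pxmp2, a pore protein of the peroxisomal membrane, fell by 0.57 on the log2 scale. Their summed level was 1523 to 1817 CPM at 0.5 mg/kg and 1621 to 1885 CPM at 5 mg/kg.

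The microsomal ω-hydroxylases Cyp4a10 and Cyp4a14 and the fatty acid translocase Cd36, strongly induced in the first interval, were higher again in the second without passing the test. Cyp4a14 stood at 480.2, 502, 457, 499.9 and 475 CPM at 0.5 mg/kg and at 934, 878, 1064, 977 and 930.4 CPM at 5 mg/kg, against 0, 30.7, 6.94, 6.98 and 2.89 CPM in the controls. Cyp4a10 went from 1125 ± 218 to 2346 ± 361 CPM (SD, n = 5) and Cd36 from 111 ± 23.2 to 267 ± 50.9 CPM. In all 3 genes each 5 mg/kg mouse exceeded each 0.5 mg/kg mouse, but the fit over 39 libraries did not call them. Their step log2 fold changes were 1.06 ± 0.34 (SE), edgeR adjusted p = 0.12 for Cyp4a10, 0.99 ± 0.58 (edgeR adjusted p = 0.49) for Cyp4a14 and 1.27 ± 0.50 (edgeR adjusted p = 0.27) for Cd36. The fit of the 10 libraries alone called all 3, with edgeR adjusted p of 0.00014, 8.9e-06 and 0.00017, and over the 9 alternatives the adjusted p ran from 6.7e-05 to 0.38, 8.9e-06 to 1 and 0.00017 to 0.43. The second step carried 17.7%, 14.8% and 25.1% of their whole log2 rise, beside the 43.2% of Ehhadh. Cyp4a31 was called, rising from 363 ± 58.9 to 952 ± 56.8 CPM (log2 fold change 1.39 ± 0.23 (SE), edgeR adjusted p = 7.2e-05), and Cyp4f14, which ω-hydroxylates eicosanoids, fell by 1.28 on the log2 scale, so the list of 12 Cyp4 genes held 1 call in each direction. Probes of the Cyp4a genes may share reads with close copies.

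Fatty acid binding and uptake genes rose in the step in 7 of 17 cases, with 1 falling (Slc27a5, the bile acid and very long-chain CoA ligase) and a median of 1.22. Some were additions of the higher dose. Fabp4, the fatty acid binding protein best known from adipocytes and macrophages, measured 39.8, 39.1, 28.2, 47.9 and 16.8 CPM in the controls and 29.998, 45.1, 40.4, 60.3 and 65.3 CPM at 0.5 mg/kg, and these groups overlapped. At 5 mg/kg it measured 709, 1350.5, 880.0, 201 and 505 CPM, a log2 fold change of 3.92 ± 0.32 (SE), edgeR adjusted p = 7.2e-13. The 5 adipocyte markers on the assay were too low to be tested: Adipoq, Plin1 and Retn were without reads in all 10 livers, and with Lep and Cfd the list summed to 1.77 CPM in animal 303, 2.84 in 305, 1.37 in 403 and 0 in the other mice. The 11 macrophage markers tested had no call in the step, summing to 148 to 255 CPM at 0.5 mg/kg and 192 to 332 CPM at 5 mg/kg. Fabp3, the heart-type binding protein, had reads in 1 of 5 mice at 0.5 mg/kg (0.484 CPM in animal 303) and measured 132, 112, 162, 86 and 22.5 CPM at 5 mg/kg (edgeR adjusted p = 1.2e-06). Fabp1, the abundant liver form, had been raised at 0.5 mg/kg and rose again from 11744, 9555, 11653, 10685 and 10918 CPM to 18227, 14530.0, 17697, 17808 and 16222 CPM (log2 fold change 0.63 ± 0.14 (SE), edgeR adjusted p = 0.0061). Acsl5, an acyl-CoA synthetase, rose by 1.03 (edgeR adjusted p = 0.0034).

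The promoters of genes that moved were read for the hexamer repeat that PPARα with RXR, and also HNF4α, can bind. The motif, AGGNCA followed by 1 base of any kind and AGGNCA again, was searched on both strands of the 250 bases before each RefSeq gene start (GRCm38.p6), and 115 of the 145 rising and 174 of the 229 falling genes had such a stretch in the table used. It was found before 1 rising gene (0.87%) and 3 falling genes (1.72%), against 0.345% of the 9573 tested genes in the table and 0.4% of all genes there. Shares that rest on 1 and 3 genes are too few to compare with this background, and no difference was tested. The last 100 bases before the start are shown for a rising and a pair of falling genes that carry it, 5′ to 3′ on the gene's strand, with the motif in capitals, Fabp1 at chr6:71199779-71199878 (plus strand), F7 at chr8:13025934-13026033 (plus strand) and Cyp2d10 at chr15:82407195-82407294 (minus strand).
Fabp1: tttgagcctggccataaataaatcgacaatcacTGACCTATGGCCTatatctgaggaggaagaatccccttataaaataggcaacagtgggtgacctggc
F7: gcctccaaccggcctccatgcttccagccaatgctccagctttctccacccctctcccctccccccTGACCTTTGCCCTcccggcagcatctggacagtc
Cyp2d10: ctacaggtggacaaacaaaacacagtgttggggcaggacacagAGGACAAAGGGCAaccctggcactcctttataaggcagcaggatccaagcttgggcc
A match thus began 67 bases before the start of Fabp1, which rose by 0.63, 34 bases before that of the coagulation factor F7, which changed by -1.05 (edgeR adjusted p = 0.0058), and 57 bases before that of Cyp2d10, which changed by -0.64 (edgeR adjusted p = 0.0074). A match of letters is not a bound site, and elements farther away were not read.

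Uncoupling proteins and a fuel switching gene were called in this step and had not been at 0.5 mg/kg. Ucp2, a mitochondrial carrier, measured 20.9, 19.985, 18.3, 13 and 15.614 CPM at 0.5 mg/kg and 144, 101, 87.1, 69.2 and 80.1 CPM at 5 mg/kg (log2 fold change 2.45 ± 0.40 (SE), edgeR adjusted p = 3.3e-05). Ucp3, usually a muscle transcript, had no read in the controls or at 0.5 mg/kg and 14.9, 17.2, 5.95, 4.4 and 4.51 CPM at 5 mg/kg (edgeR adjusted p = 0.044, up to 0.13 without animal 303, 401 or 402). Without a read at 0.5 mg/kg, Ucp3 could be called only as rising. Pdk4, the kinase that shuts pyruvate dehydrogenase in fasting, was found in 1 of 5 mice at 0.5 mg/kg (2.26 CPM) and in all 5 at 5 mg/kg with 44.5, 82.5, 32.6, 8.66 and 35.7 CPM (edgeR adjusted p = 0.014). It was the 1 call among 11 genes of ketogenesis and fuel selection. Slc25a4, an ADP/ATP carrier, rose from 19.1 ± 6.87 to 124 ± 77.9 CPM (log2 fold change 2.70 ± 0.35 (SE), edgeR adjusted p = 2.8e-07). Of the 6 carnitine shuttle genes none was called. At an unadjusted p below 0.05, 2 were higher at 5 mg/kg and 0 lower, DESeq2 called 1 as rising and the fit of 10 libraries 3. Their summed level ran from 85.1 to 143 CPM at 0.5 mg/kg and from 201 to 315 CPM at 5 mg/kg. Cpt1b, the muscle-type gate of mitochondrial import, measured 8.14, 2.78, 1.69, 3.34 and 0 CPM and then 98.6, 98.3, 53.1, 38.6 and 25.6 CPM, with an edgeR adjusted p of 0.15 over 39 libraries and 0.0011 over the 10, within a range of 2.8e-06 to 0.38 over the alternatives.

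Lipid storage and synthesis moved in the same interval. Plin2, the coat protein of lipid droplets, measured 942, 867, 1055, 1022 and 1047 CPM at 0.5 mg/kg and 3345, 4107, 3080.3, 1997 and 2758 CPM at 5 mg/kg (log2 fold change 1.63 ± 0.19 (SE), edgeR adjusted p = 1.9e-08), and 64.4% of its whole log2 rise fell in this step. Among 17 lipid droplet genes it and Plin3 were the 2 called. Plin3 rose by 0.80 (edgeR adjusted p = 0.03, up to 0.14 without animal 302, 401 or 402). In the lipogenesis and desaturation list 7 of 21 genes rose and 2 fell, whereas 1 had risen at 0.5 mg/kg. Scd1, the Δ9 desaturase that makes oleate, measured 3020.1, 2875, 2199, 3433 and 1279.9 CPM and then 9636, 6845, 7151, 5723 and 9481 CPM, without overlap (log2 fold change 1.60 ± 0.40 (SE), edgeR adjusted p = 0.015). Its brain-type relative Scd2 went from 10.9 ± 3.72 to 136 ± 65.3 CPM (log2 fold change 3.64 ± 0.86 (SE), edgeR adjusted p = 0.0089). Fads2 and Elovl5, which desaturate and elongate polyunsaturated fatty acids, rose by 1.05 and 0.99 (edgeR adjusted p = 0.00013 and 0.004). The falling members were Elovl3 and Dgat2, an enzyme of the last step of triglyceride synthesis, which changed by -0.81 (edgeR adjusted p = 0.0034). None of 24 cholesterol synthesis genes was called by edgeR over the 39 libraries (DESeq2 called 1 rising and 0 falling, the fit of 10 libraries 2 and 0, and an unadjusted p below 0.05 was met by 5 higher and 0 lower).

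The plateau genes had been moved by 0.5 mg/kg, and their step was not called and had an interval within 2-fold. Some may still have been moving, since the test threshold divides the classes. Eci1 was a plateau gene with a step of 0.51 (interval 0.14 to 0.88, edgeR adjusted p = 0.2). Acadm, with a step of 0.51 (edgeR adjusted p = 0.027), counted as rising further. Retsat, a retinol saturase, measured 230.3, 221, 338, 266 and 177 CPM in the controls, 1230.1, 941, 1107, 1248 and 1057 CPM at 0.5 mg/kg and 1417, 1181, 1230.1, 1376 and 1077 CPM at 5 mg/kg. The treated groups overlapped, and the step was 0.17 with a 95% interval of -0.16 to 0.50, after a first step of 2.18 ± 0.17. Apoa4, an apolipoprotein of triglyceride-rich particles, had fallen from 210.4 ± 52.1 to 50.9 ± 27.2 CPM and stood at 41 ± 17.1 CPM at 5 mg/kg (step -0.31, interval -0.96 to 0.34). The other 8 plateau genes with the largest first steps were Selenot, Anxa7, Rogdi, St3gal5, Rps23, Rap1a, Rdh1 and Htatip2. Rdh1, a retinol dehydrogenase, had fallen by 1.58 at 0.5 mg/kg, and the other 7 had risen by 1.56 to 1.87, while their second steps lay between -0.29 and 0.37. Eci2, an enoyl-CoA isomerase of β-oxidation that was looked up after its values were seen, had first and second steps of 1.17 and 0.19 (interval of the second -0.15 to 0.53), so members of the oxidation pathway were found in both classes. Over the 139 raised plateau genes the median first step was 0.77 and the median second step 0.10, values that the class rule itself shapes.

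**Figure D2:**
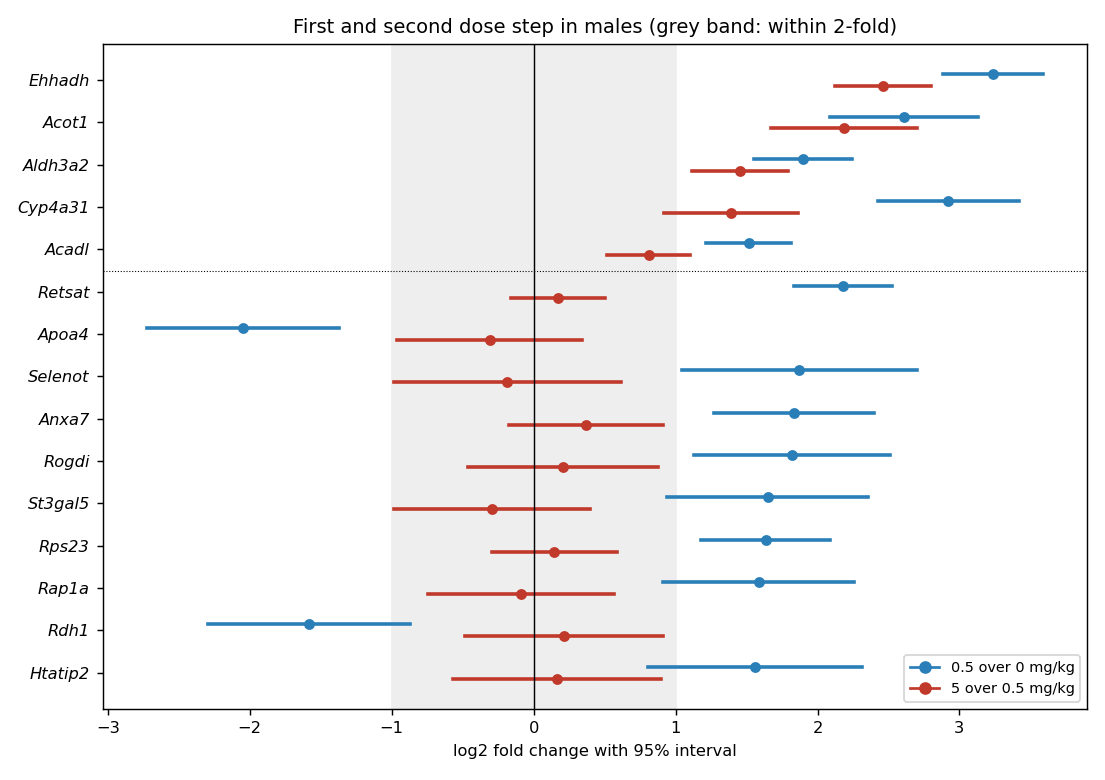
Log2 fold changes with 95% intervals for 0.5 over 0 mg/kg (blue) and 5 over 0.5 mg/kg (red) in males, for 5 genes that rose at both steps (above the dotted line) and the 10 plateau genes with the largest first step. The red intervals of the lower 10 genes lie inside the grey band of a 2-fold change, and those of Ehhadh, Acot1 and Aldh3a2 lie wholly outside it.

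Of the 28 pathway lists, the largest drop in summed CPM in the step was that of the major urinary proteins with other sex-biased genes. These pheromone-binding lipocalins are secreted by male mouse liver in large amounts under growth hormone control. In the list of major urinary proteins and sex-biased growth hormone targets 13 of 28 genes fell and 1 rose, with a median of -1.37 (-1.44 with genes at 0 in a dose set to 3 reads). The list summed to 81428, 86194, 88620.4, 81100.3 and 76092 CPM at 0.5 mg/kg and to 28853, 23162, 27630.5, 24928 and 27441 CPM at 5 mg/kg, against 71674 to 98500.2 CPM in the controls. The controls and the 0.5 mg/kg mice overlapped, and both stood above every 5 mg/kg mouse. Mup4 alone went from 10154, 10744, 12976, 9931 and 9917 CPM to 3229, 2247, 2793, 2433 and 2761 CPM (log2 fold change -1.997 ± 0.23 (SE), edgeR adjusted p = 1.9e-08). Mup3 had been lowered by the first step as well, from 10933 ± 2446 to 4517 ± 518 CPM, and reached 804 ± 316 CPM at 5 mg/kg (log2 fold change -2.49 ± 0.32 (SE), edgeR adjusted p = 4.3e-07). The Mup genes are near-identical copies in 1 cluster on chromosome 4, so a value given to 1 of them may hold reads of others. The same holds for Serpina1e, an α1-antitrypsin gene, which measured 11515, 8296, 9535, 6821 and 8614 CPM and then 2445, 1752, 3039, 2896 and 2924 CPM (log2 fold change -1.78 ± 0.14 (SE), edgeR adjusted p = 1.4e-13).

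Genes whose control levels differ between the sexes moved in both directions, and the control means are given as descriptions. Elovl3, a fatty acid elongase higher in male liver, fell from 874 ± 425 to 112 ± 77.5 CPM (log2 fold change -2.97 ± 0.57 (SE), edgeR adjusted p = 0.00063), and the control means were 1118 CPM in males and 34.6 CPM in females. Cyp7b1, an oxysterol hydroxylase with control means of 142 CPM in males and 16.8 CPM in females, fell from 90.1 ± 23.1 to 18.9 ± 15.5 CPM (log2 fold change -2.26 ± 0.47 (SE), edgeR adjusted p = 0.002). Hsd3b2, a hydroxysteroid dehydrogenase, had a log2 fold change of -2.59 ± 0.44 (SE), edgeR adjusted p = 7.2e-05, with control means of 176 and 47.5 CPM. In the other direction, Cyp2b9, a cytochrome of the constitutive androstane receptor group that female liver expresses, measured 0, 3.01, 1.86, 7.5 and 4.53 CPM at 0.5 mg/kg and 70.1, 74.6, 48.2, 91.5 and 62.3 CPM at 5 mg/kg (log2 fold change 4.35 ± 0.82 (SE), edgeR adjusted p = 0.00045). Its control means were 3.16 CPM in males and 105 CPM in females. Cyp2b13 had no read in male controls or at 0.5 mg/kg and 3.72, 8.49, 0, 10.2 and 5.99 CPM at 5 mg/kg (edgeR adjusted p = 2.9e-06), beside a female control mean of 13.7 CPM. A1bg, with 1225 CPM in female controls, was the rising member of the list, but it had reads in only 2 male mice of 5 at 5 mg/kg (1.31 and 4.35 CPM) and its call was lost when any 1 of 7 of the 10 mice was left out (adjusted p up to 0.36). Cyp2b10, the usual readout of the constitutive androstane receptor, measured 19.5 ± 11.6 and 21.8 ± 15.7 CPM (step 0.16, 95% interval -0.89 to 1.21).

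**Figure D3:**
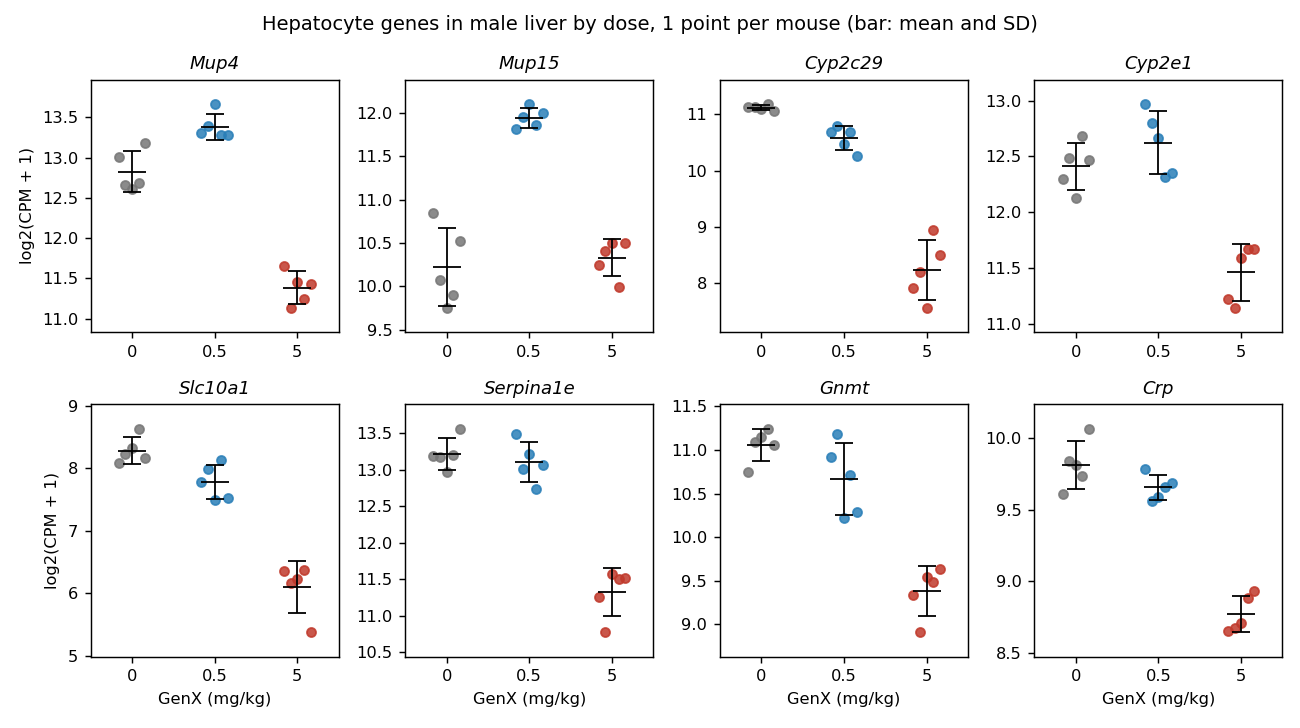
Level of 8 hepatocyte genes as log2(CPM + 1) in each male mouse against the GenX dose in mg/kg, with the mean and SD of the 5 mice as a black bar. In each panel the 5 mg/kg mice lie below all 0.5 mg/kg mice, and Mup15 rises at 0.5 mg/kg before it falls.

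Drug-metabolizing cytochromes fell in 11 of 31 cases and rose in 3 (Cyp2a4, Cyp2b9 and Cyp3a13), with a median of -0.58. Cyp3a13 had means of 53.6, 20.5 and 55.8 CPM at 0, 0.5 and 5 mg/kg, so its rise was a return to the control level after a first step of -1.39 (edgeR adjusted p = 0.056). The Cyp2a4 call was lost without animal 302, 303 or 402 (edgeR adjusted p up to 0.23). Their summed level of 12933 to 17101 CPM at 0.5 mg/kg became 7418 to 9608 CPM at 5 mg/kg. Cyp2c29 measured 1641, 1783, 1429, 1642 and 1228 CPM and then 239, 292, 187, 491 and 361 CPM (log2 fold change -2.30 ± 0.17 (SE), edgeR adjusted p = 9.3e-14). The lowest 0.5 mg/kg mouse lay above the highest 5 mg/kg mouse. Cyp2c54 and Cyp2c50 changed by -2.95 and -3.19 (edgeR adjusted p = 1.6e-07 and 0.0004), although Cyp2c genes are close copies whose probes may share reads. Cyp2e1, the ethanol and acetaminophen oxidizing enzyme, was 8014, 7131, 6493, 5113 and 5240.1 CPM at 0.5 mg/kg, overlapping the 5031, 5724, 4462, 6567 and 5662 CPM of the controls, and 2387, 2264, 3090.0, 3269.6 and 3260.0 CPM at 5 mg/kg (log2 fold change -1.16 ± 0.18 (SE), edgeR adjusted p = 1.8e-05). Cyp3a11, a pregnane X receptor target that the first dose had raised, stayed in the plateau class (step -0.23, interval -0.97 to 0.51).

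In bile acid synthesis and transport 8 of 18 genes fell in the step, none rose, and the first dose had 0 falling and 1 rising. Slc10a1, the sodium-dependent transporter that takes bile salts up from portal blood, measured 218, 253, 179.9, 278 and 184 CPM at 0.5 mg/kg and 80.5, 70.9, 74, 81.6 and 40.4 CPM at 5 mg/kg (log2 fold change -1.68 ± 0.18 (SE), edgeR adjusted p = 2.5e-09). The uptake carriers Slco1a1 and Slco1b2 changed by -1.89 and -0.81 (edgeR adjusted p = 5.2e-05 and 0.0033). On the synthetic side Cyp27a1, the sterol 27-hydroxylase, went from 104 ± 11 to 45.7 ± 7.66 CPM (log2 fold change -1.19 ± 0.20 (SE), edgeR adjusted p = 8.2e-05), and Akr1d1, the 5β-reductase, from 75.8 ± 20.6 to 27.2 ± 8.72 CPM (log2 fold change -1.48 ± 0.27 (SE), edgeR adjusted p = 0.00026). Cyp2c70, which makes the muricholic acids of mice, had a log2 fold change of -1.57 ± 0.24 (SE), edgeR adjusted p = 9.4e-06. Cyp7a1, the rate-limiting enzyme of the classical route, was not called, at 98.5 ± 42 and 82.9 ± 28.4 CPM (step -0.25, 95% interval -1.19 to 0.69).

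The most populous falling group was amino acid catabolism with the urea cycle, where 25 of 61 genes fell, none rose, and the median was -0.49. At 0.5 mg/kg 6 had fallen. The list summed to 30075, 34102, 28525, 31867 and 26231 CPM at 0.5 mg/kg and 19495, 16904, 20021, 21576 and 19668 CPM at 5 mg/kg, with no overlap. Gnmt, which disposes of surplus methyl groups on glycine, measured 1941, 2327, 1190.2, 1681 and 1251 CPM and then 648, 479.8, 743, 716 and 797 CPM (log2 fold change -1.31 ± 0.18 (SE), edgeR adjusted p = 8.3e-07). Prodh, the proline dehydrogenase of mitochondria, went from 106 ± 21.8 to 33.3 ± 13 CPM (log2 fold change -1.67 ± 0.24 (SE), edgeR adjusted p = 3.4e-06). In the urea cycle Asl, Arg1 and Otc changed by -1.08, -0.64 and -0.79 (edgeR adjusted p = 3.7e-06, 0.00083 and 0.0028), and Cps1 changed by -0.87, a call that was lost without animal 302 or 401 (adjusted p up to 0.19). Hpd and Hal, of tyrosine and histidine breakdown, changed by -0.85 and -0.96 (edgeR adjusted p = 3.3e-05 and 0.0017). In the glucose pathways 1 of 26 genes fell, Khk, the fructose kinase (log2 -0.73, edgeR adjusted p = 0.018), and none rose.

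Part of the plasma proteins made by hepatocytes fell. Of the coagulation list 13 of 26 genes fell and none rose. At 0.5 mg/kg 9 had fallen, and of those F10, Kng2, Serpind1 and Ahsg were not called in the step. The summed level went from 21711, 24092, 24202, 25347 and 24224 CPM in the controls to 19444, 19084, 18847, 16890.1 and 17683 CPM at 0.5 mg/kg and 11950.3, 12985, 14431, 14140.0 and 13579 CPM at 5 mg/kg, so it descended at both steps with no overlap between groups. Plg, which gives plasmin, went from 1393 ± 127 to 911 ± 77.7 CPM (log2 fold change -0.61 ± 0.10 (SE), edgeR adjusted p = 3.4e-05), and Hrg, the histidine-rich glycoprotein, had a log2 fold change of -0.93 ± 0.15 (SE), edgeR adjusted p = 4.2e-05. Serpinf2, the plasmin inhibitor, fell at both steps, by 0.47 and then by 0.59 (edgeR adjusted p = 0.045 and 0.004). Complement genes fell in 8 of 26 cases and none rose. C8b, a membrane attack component, measured 174, 194, 166, 95.3 and 168 CPM and then 44.1, 58.5, 70.7, 43 and 62 CPM (log2 fold change -1.52 ± 0.28 (SE), edgeR adjusted p = 0.00037), and C8g and C1s1 changed by -0.97 and -1.19. Of 19 acute phase genes 5 fell and none rose, with a median of -0.86. Abundant genes of these lists such as C3, of complement, and Hp, the haptoglobin gene, were not called in the step (log2 0.06 and -0.02). Serpina3k measured 3139 ± 820.2 and 952 ± 264 CPM (log2 fold change -1.72 ± 0.17 (SE), edgeR adjusted p = 4.7e-10), and Crp 880.4, 754, 766, 805 and 823 CPM and then 402, 409, 417, 471 and 487 CPM (log2 fold change -0.88 ± 0.11 (SE), edgeR adjusted p = 1.2e-07).

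Saa1, a strongly inducible acute phase gene, was high in a few mice only. It measured 1538, 574, 27.8, 55.3 and 325 CPM at 0.5 mg/kg, 43.4, 39.2, 67.7, 82.2 and 49.6 CPM at 5 mg/kg and 41.4, 86.2, 111, 96.9 and 176 CPM in the controls, so the doses overlapped and the 5 mg/kg mice were not set apart from the controls. Its step of -3.16 ± 0.87 (SE), edgeR adjusted p = 0.037 became -2.12 at the least and lost its call without animal 301, 401 or 402 (adjusted p up to 0.32). T and NK cell, B cell and neutrophil markers stayed near 0, with summed levels up to 20.4, 17.6 and 9.08 CPM in the 10 mice. No read was found for S100a8, S100a9, Cxcr2, Cd2, Gzma or Ms4a1, and no gene was called in any of the 3 lists. Cxcr1, a chemokine receptor gene outside these lists, was called as rising in the step. That call was lost with DESeq2, with 40 libraries and without animal 402 (edgeR adjusted p up to 0.21).

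Some endoplasmic reticulum folding factors fell in the step. In the list of unfolded protein and integrated stress response genes 9 of 38 fell and 1 rose, with a median of -0.24. The list summed to 11439 to 22006 CPM in the controls, 14950 to 20770 CPM at 0.5 mg/kg and 8876 to 16063 CPM at 5 mg/kg. The 5 mg/kg mice thus overlapped the controls as well as the 0.5 mg/kg mice. The chaperone genes Calr, Hsp90b1 and Canx were not called (log2 -0.71, -0.49 and -0.08). Sdf2l1, which assists the chaperone BiP, measured 71.4, 141, 139.7, 95.6 and 178 CPM at 0.5 mg/kg and 20.7, 24.2, 45.1, 67.7 and 53.1 CPM at 5 mg/kg (log2 fold change -1.57 ± 0.33 (SE), edgeR adjusted p = 0.0023). Dnajb11 had a log2 fold change of -0.77 ± 0.19 (SE), edgeR adjusted p = 0.015. Hspa5, which encodes BiP, measured 2139.8, 3752, 3619.6, 3240.0 and 4575 CPM and then 1133, 1553, 1762, 2668 and 2463 CPM, with overlap, and its call was lost when any 1 of 5 mice (302, 305, 401, 402 or 403) was left out (log2 -0.85, edgeR adjusted p = 0.046, up to 0.21). The rising member was Slc3a2, the heavy chain of amino acid transporters and an ATF4 target, at 96.1, 73.1, 89.4, 87 and 83.4 CPM and then 192, 288, 224, 145 and 219.7 CPM (log2 fold change 1.32 ± 0.17 (SE), edgeR adjusted p = 6.4e-07).

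Mup15 was among the genes that turned back, with no overlap at either step. It rose from 1833, 1079.9, 862, 956 and 1470.1 CPM in the controls to 3606, 3951, 4395, 3719 and 4083 CPM at 0.5 mg/kg and returned to 1214, 1358, 1449, 1017 and 1449.7 CPM at 5 mg/kg (first step 1.67 ± 0.27 (SE), edgeR adjusted p = 8.4e-05, second step -1.61 ± 0.27 (SE), edgeR adjusted p = 8.8e-05). Ctsl, the lysosomal protease cathepsin L, did the reverse, from 1685 ± 229.7 CPM down to 1037 ± 118 CPM and up to 1567 ± 278 CPM (second step 0.60 ± 0.15 (SE), edgeR adjusted p = 0.022, and edgeR adjusted p = 0.13 without animal 402). Creld2, an endoplasmic reticulum stress gene, had means of 221, 653 and 258 CPM at 0, 0.5 and 5 mg/kg, and Apoa2, a major protein of HDL, 2269.8, 3275 and 2463 CPM. The calls of Creld2 and Apoa2 in the second step (log2 -1.34 and -0.41, edgeR adjusted p = 0.077 and 0.091) were lost when any 1 of 6 and 8 mice was left out, with adjusted p up to 0.33 and 0.35. Both comparisons of each gene share the 0.5 mg/kg mice.

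Mitotic transcripts were more abundant at the higher dose. Over the 65 mitosis genes on the assay the summed level was 61, 82.6, 59, 54.8 and 65.1 CPM in the controls, 87, 72.2, 78.1, 80.3 and 86.1 CPM at 0.5 mg/kg and 284, 405, 453, 585 and 370.4 CPM at 5 mg/kg, so each 5 mg/kg mouse exceeded all others. Single genes were near the detection limit: 19 of 53 tested had at most 3 reads in every library of a dose, and 2 were called by edgeR over the 39 libraries, with 6 by DESeq2 and 17 of 38 in the fit of the 10 libraries. None was called as falling. Genes with so few reads at 0.5 mg/kg could enter the test only through other groups. In the fit of the 10 libraries they could enter only through the 5 mg/kg mice, which fixed their direction in advance. The counts of rising and falling calls are thus descriptions, and no median of the whole list is given. After thinning, 1 mitosis gene was tested and 0 were called, so depth was not addressed for single genes of this list. Ccnb1, the cyclin that drives entry into mitosis, had no read in the 0.5 mg/kg mice and 13.9, 17.7, 27.2, 38.1 and 29.6 CPM at 5 mg/kg (edgeR adjusted p = 0.023). Kif20a, a kinesin of cytokinesis, measured 3.57, 2.62, 7.26, 0 and 3.18 CPM and then 26.2, 29, 59.2, 75.3 and 55.9 CPM, and its call (edgeR adjusted p = 0.084, after an earlier call at 0.5 against 0 mg/kg) was lost when any 1 mouse was left out (up to 0.19). Mki67, the Ki-67 antigen, had no read at 0.5 mg/kg and 3.31, 0.119, 1.83, 4.33 and 2.46 CPM at 5 mg/kg, without a call (edgeR adjusted p = 0.28), and the G1 cyclin Ccnd1 went from 0, 0, 0, 2 and 2.77 CPM to 17.1, 24.8, 11.4, 18.7 and 28.7 CPM (edgeR adjusted p = 0.081, up to 0.19 with 1 mouse left out).

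DNA replication genes gave fewer calls. Of 46 tested none was called as rising (8 at an unadjusted p below 0.05, 2 by DESeq2 and 0 in the fit of 10 libraries) and 1 fell, Tk1, the S-phase thymidine kinase, with 17.4, 18.3, 5.97, 12.5 and 18.5 CPM at 0.5 mg/kg and 3.85, 1.78, 4.12, 5.11 and 1.76 CPM at 5 mg/kg (log2 fold change -2.13 ± 0.56 (SE), edgeR adjusted p = 0.027, and edgeR adjusted p = 0.11 without animal 402). Their summed level was 199 to 236 CPM at 0.5 mg/kg and 279 to 389 CPM at 5 mg/kg, without overlap. Of 41 cell cycle inhibitors, p53 targets and apoptosis genes 1 rose, Ccng1, with a log2 fold change of 0.96 ± 0.29 (SE), edgeR adjusted p = 0.083, a call lost when any 1 of 8 of the 10 mice was left out (adjusted p up to 0.27). Cdkn1a, which encodes p21, measured 0, 3.32, 0, 12.4 and 2.97 CPM and then 14.1, 4.1, 8.39, 11.9 and 6.41 CPM (step 1.26, 95% interval -1.59 to 4.11).

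**Figure D4:**
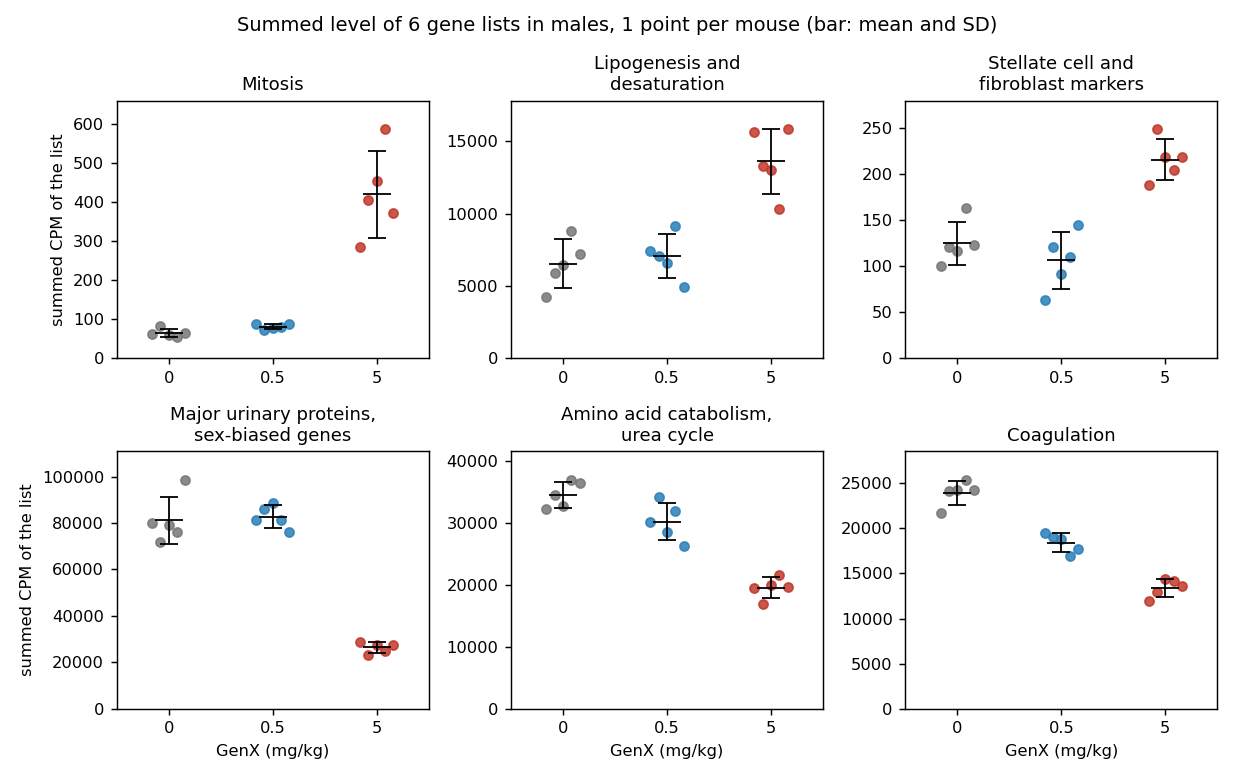
Summed CPM of 6 gene lists in each male mouse against the GenX dose in mg/kg, with the mean and SD of the 5 mice as a black bar and axes that start at 0. Mitosis, lipogenesis and stellate cell sums are higher in every 5 mg/kg mouse than in any 0.5 mg/kg mouse, and the sums of the 3 lower panels are lower in every 5 mg/kg mouse.

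Some further transcripts rose in the step, in part from no read at 0.5 mg/kg. Nrg1, a growth factor of the EGF family, had no read in the controls or at 0.5 mg/kg and 21.1, 21.3, 21.7, 6.25 and 28.4 CPM at 5 mg/kg (edgeR adjusted p = 0.018). Sptlc3, a serine palmitoyltransferase subunit, had no read in those groups either and 16.8, 11.1, 15, 17.9 and 16 CPM at 5 mg/kg (edgeR adjusted p = 0.03, and DESeq2 adjusted p = 0.11, without a call). Ly6d, a lipid-anchored surface protein, measured 0, 3.4, 1.86, 0 and 2.43 CPM and then 62.6, 109.5, 66.5, 40.9 and 59.5 CPM (edgeR adjusted p = 0.04, up to 0.12 without animal 301, 304 or 402). S100a11, a calcium-binding protein, rose from 30.1 ± 15.1 to 146 ± 34.6 CPM (log2 fold change 2.28 ± 0.37 (SE), edgeR adjusted p = 3.3e-05). Mt2, a metallothionein, measured 239.6, 198, 49, 13.1 and 23.2 CPM at 5 mg/kg against 14.1, 6.48, 0, 4.31 and 6.22 CPM at 0.5 mg/kg, an unequal rise in which animals 404 and 405 stayed close to the lower dose and animal 404 overlapped it. No fold is given for genes without a read at 0.5 mg/kg: 1 molecule there was worth an estimated 25.02 to 38.82 reads, so absence of reads was not detection of absence. Such genes, among them Nrg1, Sptlc3, Ucp3, Ccnb1 and Cyp2b13, could be called only as rising. Their direction was fixed in advance, and their calls are descriptions. Stellate cell and fibroblast markers summed to 62.7, 121, 91.7, 110.1 and 145 CPM at 0.5 mg/kg and 188, 249, 218, 204 and 219 CPM at 5 mg/kg. Col1a1 was the 1 of 11 called (log2 1.71, edgeR adjusted p = 0.095), and the call was lost when any 1 of 9 of the 10 mice was left out (adjusted p up to 0.28). Recruited monocyte markers summed to 23.9 to 56.1 and 46.3 to 79.2 CPM with no call, sinusoidal endothelial markers to 256 to 334 and 232 to 361 CPM, cholangiocyte markers to 27.3 to 60.1 and 40.045 to 95.2 CPM and erythroid markers to 69.1 to 144 and 34.9 to 84.3 CPM, none with a gene called by edgeR. At an unadjusted p below 0.05 the macrophage, monocyte, endothelial and cholangiocyte lists had 1, 2, 0 and 1 higher genes, and DESeq2 called 0, 1, 0 and 0 as rising. The part of these cell types in the results was not tested.

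Among regulators, 3 of 35 nuclear receptors and coregulators fell and none rose. Cebpa and Hnf4a, transcription factors that sustain hepatocyte identity, changed by -0.75 and -0.58 (edgeR adjusted p = 0.03 and 0.044), and Nr1i3, the constitutive androstane receptor, by -0.76 (edgeR adjusted p = 0.099). These 3 calls were near the threshold and were lost without 301 or 402 for Cebpa, without 301, 305, 404 or 405 for Hnf4a, and without any 1 of 9 of the 10 mice for Nr1i3 (adjusted p up to 0.2, 0.12 and 0.31). Ppara itself measured 140.3 ± 50.4 and 112 ± 30.8 CPM, with a step of -0.33 and a 95% interval of -0.89 to 0.23. By zone, 7 of 14 periportal genes fell and none rose, while 4 of 16 pericentral genes fell and 2 rose, Aldh3a2 and Gstm3. Several of these zonal genes are also in the amino acid, bile acid and cytochrome lists. Pigr, which carries immunoglobulin A into bile, fell from 74.6 ± 22.7 to 11.3 ± 9.41 CPM (log2 fold change -2.72 ± 0.40 (SE), edgeR adjusted p = 5.7e-06).

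Oxidative phosphorylation and proteasome genes showed little in this interval. Of 63 oxidative phosphorylation genes 2 rose, Ndufab1 and Atp5g3, and none fell, with a median of 0.08. The Atp5g3 call was lost when any 1 of 9 of the 10 mice was left out (edgeR adjusted p up to 0.24). Ndufab1, which is also the mitochondrial acyl carrier protein, went from 187 ± 17.8 to 395 ± 27.6 CPM (log2 fold change 1.08 ± 0.18 (SE), edgeR adjusted p = 4.6e-05). Of 38 proteasome genes 1 rose, Psmd8 (log2 0.50, edgeR adjusted p = 0.041, up to 0.17 without animal 302 or 305), whereas 5 had risen at 0.5 mg/kg and all 5 of those were in the plateau class. Of 40 NRF2 targets and antioxidant genes 4 rose and 2 fell (11 and 3 of 39 in the fit of 10 libraries). Gstp1, a glutathione transferase with higher control levels in males than in females (5715 and 471 CPM), fell from 4085 ± 889 to 1726 ± 186 CPM (log2 fold change -1.24 ± 0.21 (SE), edgeR adjusted p = 7.2e-05). Ftl1, the ferritin light chain, rose by 0.51 (edgeR adjusted p = 0.0023).

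**Figure D5:**
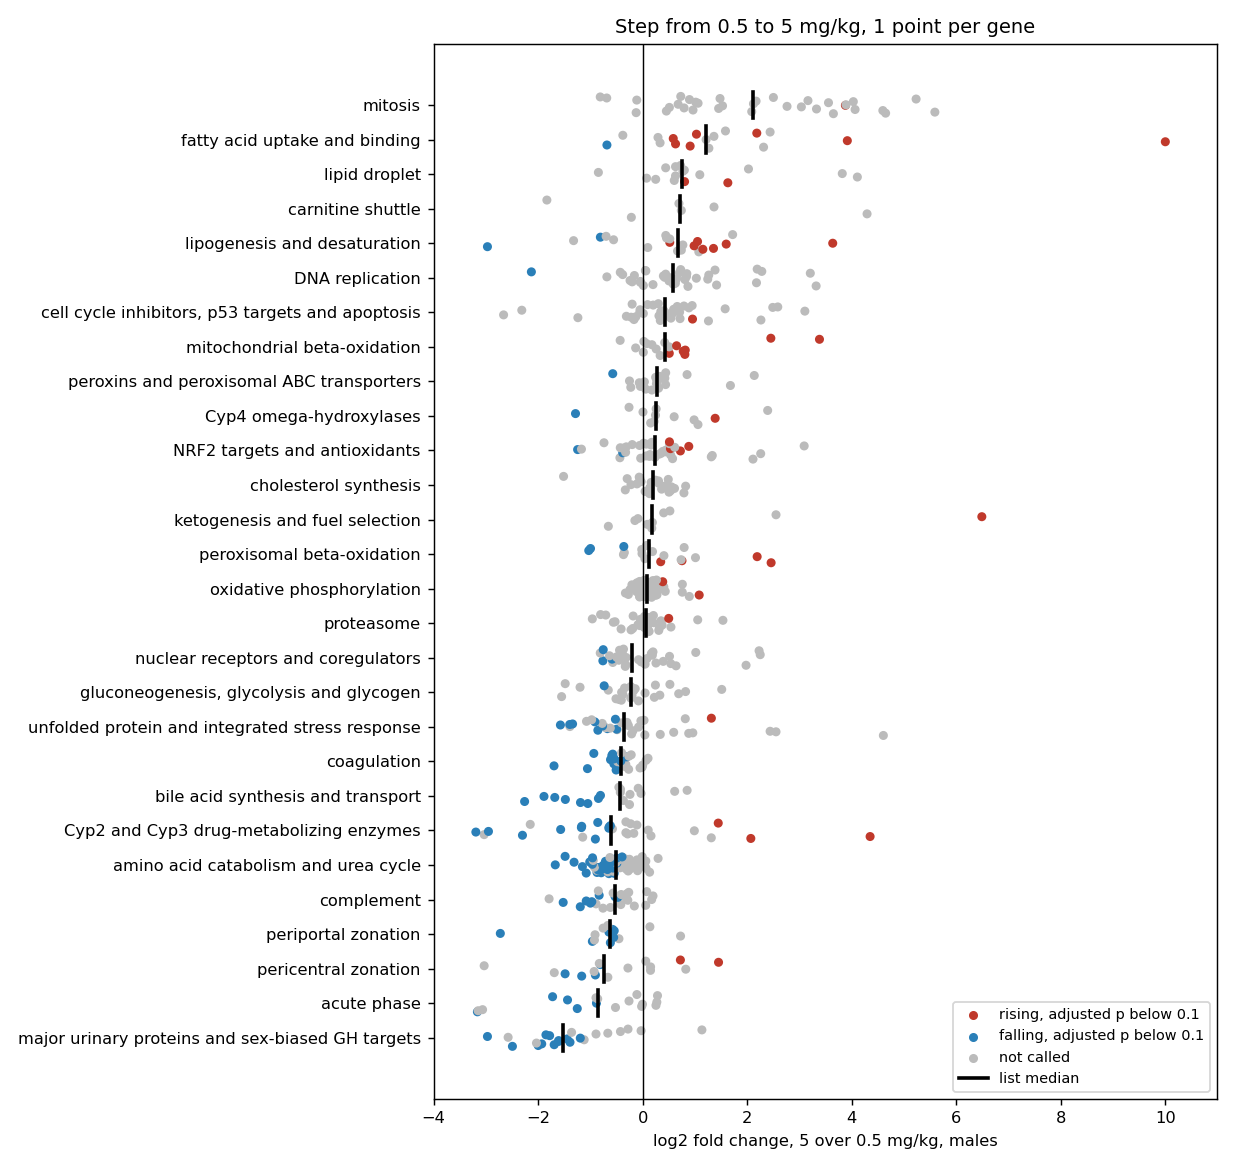
Log2 fold change of 5 over 0.5 mg/kg in males for the genes of 28 pathway lists, 1 point per gene, with called genes in red (rising) or blue (falling). The black bar is the median of the drawn genes of a list, which for mitosis leaves out many members. Genes with at most 3 reads in every library of a dose are not drawn. The fatty acid uptake list lies mostly to the right of 0, and the secreted protein, amino acid, bile acid and cytochrome lists to the left.

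The step was then set beside the same step in female mice, which shares no animal with it. Of the 78 genes that rose in females between 0.5 and 5 mg/kg, 37 (47.4%) rose in the male step and 0 fell, where 1.17% and 1.84% of all genes did. Of the 93 genes that fell in that female step, 53 (57.0%) fell in the male step and 0 rose. Over the wider female interval from 0 to 5 mg/kg, 260 genes rose, of which 67 (25.8%) rose and 2 fell in the male step, and 248 fell, of which 106 (42.7%) fell and 1 rose. The difference between the male and the female step itself passed the test for 14 genes (0.113% of those tested). Fabp4 was the clearest, with 45.6 and 70.3 CPM in females at 0.5 and 5 mg/kg and a log2 difference of 3.29 ± 0.42 (SE), edgeR adjusted p = 6.4e-06. Retsat went the other way: females went from 505 ± 171 CPM (n = 4) to 1488 ± 214 CPM (n = 5) over the interval in which the male change was not called, a difference of -1.39 ± 0.24 (SE), edgeR adjusted p = 0.0048. Cyp2e1 and Gstp1 fell in males and measured 5888 and 6340.1 CPM, and 582 and 759 CPM, in females (differences -1.27 and -1.63, edgeR adjusted p = 0.025 and 0.0073). Cyp2c29 fell in both sexes and by 1.31 more on the log2 scale in males (edgeR adjusted p = 0.0073).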

How the data were processed

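TempO-Seq, in which paired detector oligonucleotides are ligated on their target RNA, amplified and sequenced, was run on liver sections of 40 mice. The authors deposited a table of raw read counts per probe and library, made with bcl2fastq 2.17.1.14, Bowtie and mm10 per the submitters' processing notes. No normalization had been applied to the deposited counts, and the table holds no molecular identifiers, so precision reflects reads and not molecules. All 30146 probes of 21448 genes were read, and 1 female library at 0.5 mg/kg was left out for a read total over 2 SD short of the average.

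The 39 libraries were fitted with edgeR 4.0.16 in R 4.3.3 (TMM, filterByExpr, quasi-likelihood F-test, 1 coefficient per sex and dose, with limma 3.58.1 installed). Probes were adjusted together by Benjamini-Hochberg and called at an adjusted p below 0.1, and the most counted probe stood for each of 12412 genes tested. CPM are TMM-scaled. Intervals are 95% from the fit. Alternatives were DESeq2 1.42.0, DESeq2 size factors, no filter, only the groups compared, all 40 libraries, summed probes, an adjusted p of 0.05, each mouse left out, and counts divided by the reads per molecule and thinned to 287183 molecules per library. The scripts were tested on simulated data. Each replicate is a separate mouse.

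The members and gene lists were chosen with earlier results of these data known, so lists are described and not tested. Named genes were the 12 largest non-overlapping changes in each direction, genes at 3 reads or fewer in 1 dose, up to 4 called genes per list by p, the 10 largest plateau genes, up to 8 that turned back and up to 8 differing between the sexes, with set pathway genes. Scd1, Fabp1, Acaa1a, Saa1, Col1a1, Hspa5, Otc, A1bg, Mt2, F7, Cyp2d10, Eci1, Eci2, Acadm, Cyp3a11, Cps1, C3, Hp, Calr, Hsp90b1, Canx, F10, Kng2, Serpind1 and Ahsg were named after their values were seen. Probes for Mup, Cyp2b, Cyp2c, Cyp4a, Acot, Serpina1 and Serpina3 genes may share reads with close copies. Promoters came from RefSeq on GRCm38.p6. Some genes are not reported here.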

Additional observations from a re-analysis of the deposited data

Results flagged for a closer look

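In 20 of 302 gene and dose groups of 5 mice, 1 mouse stood apart from its group by Dixon's gap test at 95%, which chance flags in about 1 group in 20. By mouse they were 5 in animal 301, 4 in animal 303, 4 in animal 304, 3 in animal 402, 1 in animal 403, 1 in animal 404 and 2 in animal 405. No explanation was tested for any of them.

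Animal 301 was highest for Acot3 at 78 CPM (others 12.4 to 25.3), highest for Obp2a at 26.1 CPM (others 0 to 5.05), highest for Phyh at 505 CPM (others 305 to 337), lowest for Selenot at 12.5 CPM (others 36.5 to 40.7), highest for Apoa2 at 4059 CPM (others 2936 to 3186). Animal 303 was highest for Pdk4 at 2.26 CPM (others 0), highest for Fabp3 at 0.484 CPM (others 0), highest for Mup4 at 12976 CPM (others 9917 to 10744), highest for Cdk1 at 2.18 CPM (others 0). Animal 304 was lowest for C8b at 95.3 CPM (others 166 to 194), highest for Cidec at 2.005 CPM (others 0), highest for Cdkn1a at 12.4 CPM (others 0 to 3.32), highest for Fasn at 148 CPM (others 64.6 to 84.7). Animal 402 was highest for Slc25a4 at 261 CPM (others 67.7 to 107), highest for Slco1b2 at 111 CPM (others 67.4 to 77.6), highest for Cyp2a4 at 278 CPM (others 97 to 131). Animal 403 was highest for Hrg at 258 CPM (others 169 to 193). Animal 404 was highest for Cyp2c54 at 214 CPM (others 18.1 to 64.8). Animal 405 was lowest for Slc10a1 at 40.4 CPM (others 70.9 to 81.6), highest for Acaa1a at 4894 CPM (others 2276 to 2427).

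The step differed between the sexes, by the interaction term of the edgeR fit, for 9 of the genes named here. The male minus female difference on the log2 scale was 3.29 for Fabp4 (adjusted p = 6.4e-06), -1.31 for Cyp2c29 (adjusted p = 0.0073), -1.27 for Cyp2e1 (adjusted p = 0.025), -1.63 for Gstp1 (adjusted p = 0.0073), 0.92 for Gstm3 (adjusted p = 0.081), -1.39 for Retsat (adjusted p = 0.0048), 8.53 for Cyp2b13 (adjusted p = 0.0048), 8.65 for Nat8f6 (adjusted p = 0.019), 1.35 for Pter (adjusted p = 0.025). Nat8f6 had no read in any female at 5 mg/kg and Cyp2b13 none in males at 0.5 mg/kg, so their differences depend on how the fit treats 0. The females at 0.5 mg/kg were 4 libraries, since 1 was left out for low depth.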

How the results depend on the processing

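The 374 genes called in the male step (145 rising, 229 falling) became 634 (275 and 359) with DESeq2, 624 (333 and 291) with only the libraries of the 2 groups, 568 (278 and 290) with thinned molecules and 113 (40 and 73) when the shallow female library was kept, so that 40 entered. Of the 374, 368 were also called by DESeq2. The rising share was 38.77%, and 35.56% with DESeq2 size factors, 43.38% with DESeq2, 53.37% with only the 2 groups and 48.94% with thinned molecules. For 0.5 against 0 mg/kg 324 calls became 642 with DESeq2 and 66 with 40 libraries, and for 5 against 0 mg/kg 1160 became 652 with 40. The 14 differences between male and female steps became 179 with DESeq2, 87 with no filter on low counts, 7 with 40 libraries and 22 with thinned molecules. The 186 plateau genes became 280 with DESeq2, 29 with 40 libraries and 99 when a 1.5-fold band replaced the 2-fold band. Leaving out each mouse in turn gave 253 to 366 step calls, 94 to 131 rising and 159 to 235 falling, with the lowest of all 3 without animal 402, and 237 to 294, 936 to 1086, 9 to 23 and 133 to 190 for the other counts in the order above. The causes were not tested.

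Of 127 named genes called in the step, 56 kept their call under every alternative that tested them and with each mouse left out. The call was lost by 66 with 40 libraries, 6 with DESeq2 and 2 with thinned molecules, and 0 reversed. Some genes of low count were not tested in every alternative, which did not count as a loss. Thinning left 3700 genes to test. No paired analysis was possible because the animal numbers share no replicate number across groups. A molecule was worth an estimated 20.77 to 38.82 reads, so levels of a few CPM rest on few molecules.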
